A study of Mus musculus with 10 samples.

Results

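All 6 libraries of mouse leukaemia lines that had grown out under dasatinib were set against both libraries of lines carried in the solvent DMSO, across every gene that could be tested. The members of the comparison were these 8 of the 10 sequenced libraries, chosen by their labelled treatment, and the dose step entered the test as a covariate. All libraries came from a murine Ph+ ALL line, a B-cell precursor leukaemia driven by BCR-ABL1 in its p185 form, which was grown in RPMI with serum. Dasatinib was raised in steps named as multiples of the IC90, a dose that inhibits most of the growth, and cells went on to the next dose after outgrowth. The dasatinib group held 3 libraries at step 1x and 3 at step 16x, lettered A, B and C and titled biological replicates. The DMSO group held 1 library labelled 1x and 1 labelled 16x, called DMSO lines here. The 2 libraries of the untreated parental line were not in the test, and their values are given as a description. The sources do not tell whether the replicates, or the 2 DMSO libraries, came from separate cultures. The p-values therefore reflect no more than the spread among these samples. With a single DMSO library at each step, the drug and the culture history of those particular DMSO cells cannot be told apart.

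BCR-ABL1 is a constantly active tyrosine kinase that signals through STAT5, the RAS-ERK cascade and the PI3K-AKT pathway, and the leukaemia cells depend on it for growth and survival. It partly takes over the work of the pre-B cell receptor, which together with SRC family kinases drives normal B-cell precursors. Dasatinib blocks ABL and SRC family kinases. Known routes of escape include kinase domain mutations, which gene counts cannot show, and use of other growth signals, survival proteins or drug efflux pumps.

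Each of the 8 libraries held between 31695307 and 45813092 counts in genes, and 12908 of 29955 listed genes had enough counts to be tested. Levels are given as CPM, counts scaled to a common library size with TMM factors over all 10 libraries, and log2 changes are dasatinib minus DMSO, ± SE. B-cell precursor genes were abundant in every library, with a summed level of 3187 to 3345 CPM for 11 markers under dasatinib, 3587 and 3750 CPM in DMSO 1x and 16x, and 3401 to 3406 CPM in the parental line. Ebf1, a defining B-lineage factor, was an exception at 0.0958 to 0.716 CPM over the 10 libraries. Markers of T and NK cells summed to 162 to 259 CPM under dasatinib against 146 and 173 CPM in DMSO, most of it Cd2, while Cd4 and Gzmb had 0 counts in all 10 libraries. Myeloid markers summed to 9.17 to 19.1 CPM against 8.21 and 9.01 CPM, with Elane, Cebpa and Cebpe at 0 counts. Erythroid and megakaryocytic markers summed to 11.5 to 35.8 CPM against 12.7 and 36.3 CPM. Stromal and endothelial markers summed to 48.8 to 59.8 CPM against 53.1 and 48.1 CPM, with Col3a1 at 0 counts. Most of that sum was Pecam1, at 46.7 to 59.7 CPM over the 10 libraries, while Cdh5 reached at most 1.21 CPM and Acta2 0.188 CPM. As these are bulk samples, fewer cells of a type and less RNA per cell cannot be told apart. On the leading principal component of the 8 libraries, which held 55.8% of their variance, the dasatinib libraries lay close together at 21.2 to 27.3. DMSO 1x lay at -53.3 and DMSO 16x stood apart at -88.4, and the parental libraries, projected afterwards, lay in between at -16.9 and -16.7.

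Between dasatinib and DMSO lines, 3596 of 12908 genes changed by edgeR's quasi-likelihood test at an adjusted p under 0.05, which is 27.9% of the genes tested. Of these, 1748 (13.5% of those tested) were higher under dasatinib and 1848 (14.3%) were lower. At an unadjusted p under 0.05 there were 5120 genes. In 4540 genes, 35.2% of those tested, all 6 dasatinib libraries lay beyond both DMSO libraries. The 2 directions differed in size: 639 of the lower genes and 178 of the higher ones had changed at least 2-fold, and against a null of a 2-fold change 292 lower and 13 higher genes passed. Without DMSO 16x the count fell from 3596 to 1341 genes, 665 higher and 676 lower, of which 1280 were also called with all 8 libraries, each in the same direction. Without DMSO 1x it was 4030 genes, 3064 of them shared and in the same direction.

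Both steps entered the test that called these genes, so the sign at each step is given as a description. All 1748 higher genes had a positive difference at 1x and at 16x, and 1846 of 1848 lower genes a negative one at both, while the sign was the same at both steps in 9614 of all 12908 tested genes and in 6020 of the 9312 not called. Differences of the called genes were larger at 16x, with medians of 0.26 and 0.52 on the log2 scale for the higher genes and -0.33 and -0.52 for the lower genes at 1x and 16x. The absolute difference was larger at 16x in 3080 of the 3596 called genes, in 5881 of the 9312 not called and in 8961 of all 12908. Each step rests on a single DMSO library.

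**Figure D1:**
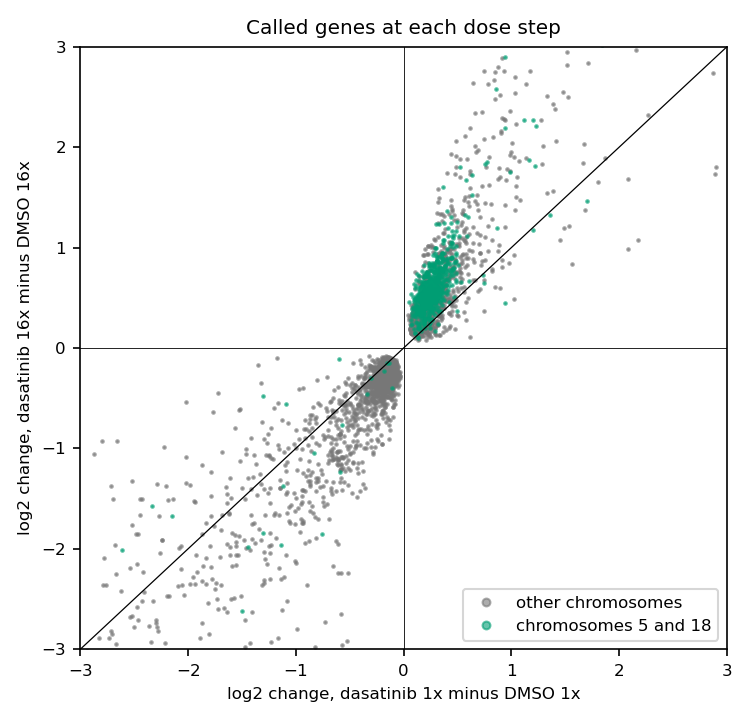
Log2 change at step 1x (x axis) against that at step 16x (y axis) for the called genes, 1 point a gene, with genes of chromosomes 5 and 18 in green and the line of equal change drawn. The plot shows 3193 of the 3596 called genes, as 403 lie beyond an absolute log2 change of 3, and most points lie farther from 0 at 16x than at 1x.

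The parental libraries showed on which side of each difference the starting line lay. In 1798 of the 3596 called genes (50%) both DMSO libraries lay beyond all 8 others, so that the parental line sided with the dasatinib lines. In 399 genes (11.1%) the 6 dasatinib libraries lay beyond the other 4. In 906 genes (25.2%) the parental libraries lay between the dasatinib and the DMSO libraries, and in 459 (12.8%) the dasatinib and DMSO libraries overlapped. Among the 9312 genes not called these shares were, in the same order, 8.97, 3.54, 0.623 and 84.9%. Judged by means of log2 CPM, the parental line lay between the 2 means and nearer to dasatinib in 1756 called genes (48.8%). Of the genes not called 14.8% did so. The parental line lay beyond the dasatinib mean in 933 called genes (25.9%), a smaller share than the 42.7% of genes not called.

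Abl1, the gene of the drug's main target, did not pass the test. It stood at 177 to 201 CPM (median 188) in the dasatinib libraries, 196 CPM in DMSO 1x, 178 CPM in DMSO 16x and 202 and 198 CPM in the parental line. The groups overlapped, with a log2 change of 0.012 ± 0.03 and an adjusted p of 0.814. Reads of the endogenous gene and of the fusion cannot be told apart in this table.

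Spna1 and Lilrb4 were nearly absent from the DMSO and parental lines alike and reached a mean of at least 1 CPM under dasatinib. Some genes of lower level had fitted changes as large and are not ranked here. Spna1, the erythroid alpha-spectrin of the membrane skeleton, lay at 2.68 to 10.7 CPM (median 7.54) under dasatinib, 0.0546 CPM in DMSO 1x, 0 in DMSO 16x, and 0.0341 and 0.119 CPM in the parental line. All 6 dasatinib libraries were thus above the other 4, and the DMSO libraries held 2 counts together. The ratio of counts was 253 (95% counting interval 70.0 to 2094), with an adjusted p of 0.00117. Among other erythroid genes, Hbb-b1, a beta globin, did not move with Spna1: it was called lower (log2 change -1.07 ± 0.24, adjusted p = 0.0164), at 3.50 to 4.24 CPM in dasatinib 1x, 16.2 to 26.4 CPM in dasatinib 16x, and 11.2 and 34.5 CPM in DMSO 1x and 16x. The groups overlapped, and the call was lost without DMSO 1x (adjusted p = 0.123) and with no dose step term (adjusted p = 0.60).

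Lilrb4, an inhibitory immunoglobulin-like receptor, was the other gene nearly absent from the DMSO lines: 0.931 to 1.47 CPM (median 1.07) under dasatinib against 0.0273 and 0.0269 CPM in DMSO, and 0.0681 and 0.119 CPM in the parental line. Its log2 change was 5.20 ± 0.48 (adjusted p = 0.000186). Mmp13, a collagenase, lay at 5.72 to 12.4 CPM (median 9.51) under dasatinib, 0.955 and 0.0806 CPM in DMSO 1x and 16x, and 1.81 and 1.77 CPM in the parental line. The parental level was between the 2 groups, and the log2 change was 4.31 ± 0.56 (adjusted p = 0.00225). Slc22a8, an organic anion transporter, was at 7.28 to 17.5 CPM (median 9.68) under dasatinib, against 2.65 and 2.37 CPM in DMSO and 2.52 and 1.96 CPM in the parental line. Here the DMSO and parental libraries lay together and all dasatinib libraries above them (log2 change 1.99 ± 0.27, adjusted p = 0.00176). Micall2, a Rab-binding protein of cell junctions encoded on chromosome 5, showed the same order, at 11.7 to 19.9 CPM (median 13.6) against 2.59 and 1.16 CPM in DMSO and 1.60 and 2.13 CPM in the parental line (log2 change 3.03 ± 0.38, adjusted p = 0.00192).

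**Figure D2:**
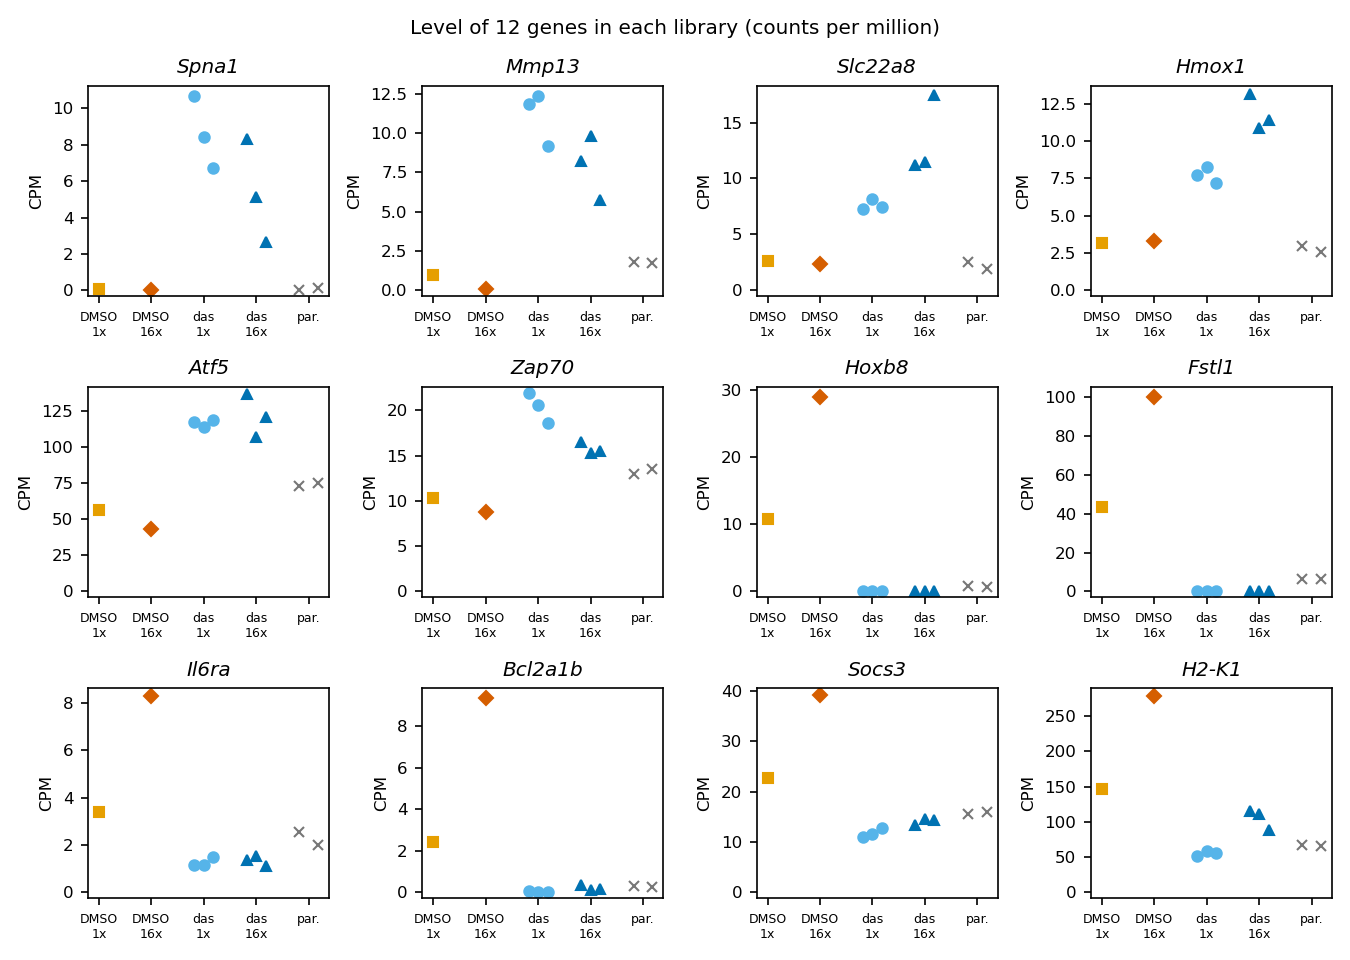
Level of 12 genes in each of the 10 libraries, in CPM on linear axes, 1 point a library, with DMSO, dasatinib (das) and parental (par.) libraries from left to right. Spna1, Slc22a8 and Hmox1 are high in the 6 dasatinib libraries alone, whereas Hoxb8 has 0 counts in those 6 and is highest, at 29.0 CPM, in DMSO 16x.

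The other highest genes by fold, among those with a mean of at least 5 CPM in either group, were largely lows of DMSO 16x. Gpr65, a proton-sensing receptor, was at 8.12 to 13.3 CPM (median 11.3) under dasatinib, 4.58 CPM in DMSO 1x, 1.18 CPM in DMSO 16x and 7.22 and 7.69 CPM in the parental line (log2 change 2.08 ± 0.41, adjusted p = 0.0102). Rps6ka2, a ribosomal S6 kinase of the ERK pathway, had 9.61 to 16.4 CPM (median 12.7), 5.97 and 0.914 CPM in DMSO 1x and 16x, and 9.40 and 9.34 CPM in the parental line (log2 change 2.12 ± 0.44, adjusted p = 0.0129). In both genes the parental line was close to the dasatinib range. Rps6ka2 lost the call with no dose step term (adjusted p = 0.0726). Dse, an epimerase of dermatan sulfate, Odz4, a teneurin, and Enthd1 passed as well, with log2 changes of 2.65, 2.82 and 2.22. Fbxw17, Zfp704 and Adarb1, an RNA-editing deaminase, had log2 changes of 2.06, 2.06 and 2.05. Fbxw17 lost the call without any 1 of the 6 dasatinib libraries, with an adjusted p of at most 0.103 over all settings other than the 2-fold threshold. Of these 18 settings Zfp704 lost the call in 11, Fbxw17 in 10 and Adarb1 in 6. For Zfp704 they included leaving out dasatinib 1x A, B or C or dasatinib 16x B or C, and for Adarb1 dasatinib 1x B or 16x C. Zfp704 and Adarb1 also lost the call without DMSO 16x (log2 changes 1.36 and 1.29).

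Many of the genes that fell most were silent, or nearly so, in every dasatinib library. With a rule chosen after the values were seen, under 0.2 CPM in each dasatinib library and a mean of at least 1 CPM in DMSO, 82 genes were nearly absent under dasatinib, and only Spna1 and Lilrb4 met the opposite rule. Of the 82 genes, 23 had 0 counts in all 6 dasatinib libraries. All 82 passed the test as lower, also without DMSO 16x, and without DMSO 1x all 81 that could be tested. The rule used the same contrast, so these calls are a description. Just inside the limit lay 25 genes whose highest dasatinib level was 0.1 to 0.2 CPM, and 13 genes lay just outside at 0.2 to 0.3 CPM.

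Kif13a, a kinesin motor, had 0 counts in the 6 dasatinib libraries, 18.7 CPM in DMSO 1x, 46.4 CPM in DMSO 16x and 4.12 and 4.23 CPM in the parental line. Set against a floor of 3 counts over the dasatinib libraries it was at least 2604-fold lower than in DMSO (adjusted p = 5.76e-05). By the same measure Casd1, a sialic acid acetyltransferase, was at least 1976-fold lower, Slc25a13, the mitochondrial aspartate carrier citrin, at least 1671-fold lower, and Magohb, a part of the exon junction complex, at least 647-fold lower. These 3 genes also had 0 counts under dasatinib, and each was present in the parental line, at 3.78 and 3.99 CPM for Casd1, 1.57 and 1.67 CPM for Slc25a13, and 0.851 and 1.00 CPM for Magohb. Fstl1, a secreted glycoprotein, reached 43.5 and 100.3 CPM in DMSO 1x and 16x and 6.64 CPM in each parental library, against 0 to 0.132 CPM (median 0.0485) under dasatinib (log2 change -10.12 ± 0.25, adjusted p = 6.75e-07). Fes, a cytoplasmic tyrosine kinase, lay at 0.0633 to 0.126 CPM (median 0.0976) against 15 and 36.3 CPM in DMSO and 2.38 and 2.10 CPM in the parental line (log2 change -7.98 ± 0.21, adjusted p = 1.76e-07). Slc2a3, a glucose transporter, lay at 0 to 0.110 CPM against 7.75 and 22 CPM in DMSO and 0.647 and 0.740 CPM in the parental line (log2 change -8.60 ± 0.32, adjusted p = 6.75e-07). The dasatinib libraries together held only 15 counts of Fstl1, 23 of Fes and 9 of Slc2a3, so these SEs can be too small.

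The rule placed the dasatinib libraries below DMSO and fixed neither the order of the DMSO libraries nor the parental level. By asking for a high DMSO mean, it still favoured genes in which a DMSO library stood above the parental line. The counts below are therefore a description, and the shares over all tested genes are not given. DMSO 16x held the highest level of the 10 libraries in 73 of the 82 genes, and the parental line lay below DMSO 1x in 77. It lay above all 6 dasatinib libraries in 75, where the rule's limit of 0.2 CPM leaves little room below. The level in DMSO 1x was a median of 39.3% of that in DMSO 16x (quartiles 34.7 and 48.9%), and the parental level a median of 7.80% of it (quartiles 4.60 and 12.3%). The genes were spread over 19 chromosomes, with at most 8 on any of them among the 80 whose chromosome was found. Among them 6 were neighbours, the Hoxb genes.

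**Figure D3:**
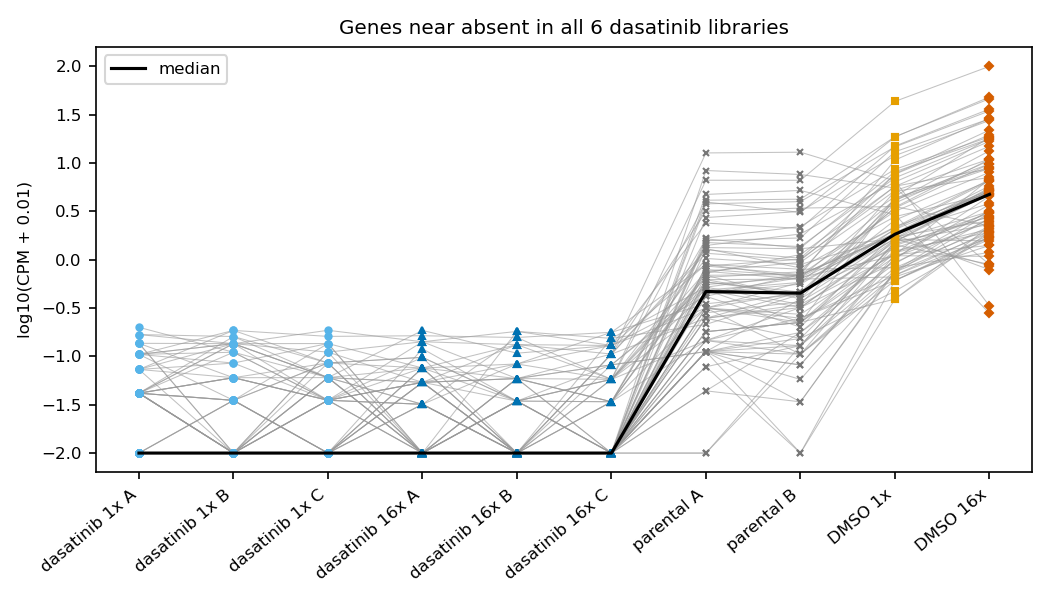
Log10 of CPM plus 0.01 (y axis) in each library (x axis) for the 82 genes nearly absent under dasatinib, 1 grey line a gene and the median of the genes in black. Every gene is under 0.2 CPM in the 6 dasatinib libraries, and 73 of the 82 are highest in DMSO 16x.

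The Hoxb genes, neighbouring homeobox genes that mark early blood progenitors, supplied 6 of the 82. Hoxb8 had 0 counts under dasatinib, 10.7 and 29.0 CPM in DMSO 1x and 16x and 0.851 and 0.693 CPM in the parental line, which is at least 1588-fold lower than in DMSO (adjusted p = 0.000105). Hoxb7 had 1 count in the 6 dasatinib libraries against 3.85 and 10.6 CPM in DMSO, a ratio of 1739 (95% counting interval 311 to 68823). Hoxb3 and Hoxb5 also had 0 counts under dasatinib, at 5.54 and 5.24 CPM in DMSO 16x, while Hoxb4 and Hoxb6 had at most 0.0317 and 0.0504 CPM under dasatinib, against 4.78 and 13.4 CPM in DMSO 16x. All 6 were thus present in the DMSO lines and at most at trace levels under dasatinib.

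The start regions of the silent genes were described by their CG pairs, the sites of DNA methylation. Of 61 of the 82 genes matched to a RefSeq promoter window (GRCm38.p6, 250 bases before to 50 after the start), 49 (80.3%) held at least 10 CG pairs, against 82.0% of the windows of 9465 tested genes, and the medians were 18 and 21. The windows of Hoxb8 (chr11:96281655-96281954, plus strand, 13 CG pairs) and Kif13a (chr13:46929669-46929968, minus strand, 62 CG pairs) are shown 5′ to 3′. Both genes had 0 counts under dasatinib. The quartiles of the 61 matched genes were 11 and 31 CG pairs, so Hoxb8 lay between them and Kif13a above them. CG pairs are in capitals.
Hoxb8: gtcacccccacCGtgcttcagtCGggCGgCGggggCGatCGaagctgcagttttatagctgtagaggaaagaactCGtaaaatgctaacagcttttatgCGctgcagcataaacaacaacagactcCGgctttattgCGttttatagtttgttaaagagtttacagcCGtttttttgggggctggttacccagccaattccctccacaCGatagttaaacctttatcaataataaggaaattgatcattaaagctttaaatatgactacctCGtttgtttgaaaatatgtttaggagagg
Kif13a: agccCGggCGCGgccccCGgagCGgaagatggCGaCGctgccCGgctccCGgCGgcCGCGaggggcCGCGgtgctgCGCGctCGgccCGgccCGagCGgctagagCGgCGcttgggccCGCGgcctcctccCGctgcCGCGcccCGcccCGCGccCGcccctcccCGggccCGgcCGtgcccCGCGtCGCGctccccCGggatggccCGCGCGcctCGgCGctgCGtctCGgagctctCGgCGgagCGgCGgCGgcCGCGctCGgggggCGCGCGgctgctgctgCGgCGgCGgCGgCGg

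The count of called members in each gene list stands against 13.5% higher and 14.3% lower of all tested genes. Genes that STAT5 induces, a direct output of BCR-ABL1, split in direction. Of 14 tested members 3 (21.4%) were higher (Cish, Ccnd3 and Osm) and 8 (57.1%) lower (Socs2, Socs3, Pim2, Bcl2l1, Mcl1, Ccnd2, Myc and Gadd45g), with a median log2 change of -0.12 against 0.0025 over all tested genes. Without DMSO 16x, 0 members were higher and 2 lower. Socs3, a feedback inhibitor of cytokine receptors, fell most clearly: it lay at 11.1 to 14.5 CPM (median 13.1) under dasatinib, 22.7 and 39.2 CPM in DMSO 1x and 16x, and 15.5 and 15.9 CPM in the parental line. All dasatinib libraries were below the other 4 (log2 change -1.22 ± 0.11, adjusted p = 0.000139). Pim2, a survival kinase, fell from 19.6 and 20.7 CPM in DMSO to 13.9 to 16.9 CPM (median 15.9), with the parental line at 16.2 and 16.3 CPM (log2 change -0.37 ± 0.07, adjusted p = 0.00612). Cish, another feedback inhibitor, was higher instead, at 38.1 to 42.2 CPM in dasatinib 1x and 54.7 to 72.5 CPM in dasatinib 16x against 33.4 and 37.2 CPM in DMSO (log2 change 0.51 ± 0.14, adjusted p = 0.0332, but 0.386 without DMSO 16x).

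The palindrome bound by STAT proteins, TTCNNNGAA, read the same on both strands, was found in the start window of 2 of the 7 called STAT5-induced genes that could be matched, and in 675 of 9465 (7.13%) windows of tested genes. The 2 genes were Cish (chr9:107296409-107296708, plus strand, 2 matches) and Socs3 (chr11:117969317-117969616, minus strand, 1 match), which moved in opposite directions. Their windows (RefSeq, GRCm38.p6) are given 5′ to 3′ with the matches in capitals. A match is a description of these letters, not of binding.
Cish: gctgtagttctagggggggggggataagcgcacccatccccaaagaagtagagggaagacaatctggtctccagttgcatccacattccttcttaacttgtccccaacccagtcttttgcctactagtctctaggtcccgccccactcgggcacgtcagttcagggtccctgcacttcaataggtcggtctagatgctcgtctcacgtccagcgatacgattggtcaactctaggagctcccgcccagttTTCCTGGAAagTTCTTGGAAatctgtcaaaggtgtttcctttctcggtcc
Socs3: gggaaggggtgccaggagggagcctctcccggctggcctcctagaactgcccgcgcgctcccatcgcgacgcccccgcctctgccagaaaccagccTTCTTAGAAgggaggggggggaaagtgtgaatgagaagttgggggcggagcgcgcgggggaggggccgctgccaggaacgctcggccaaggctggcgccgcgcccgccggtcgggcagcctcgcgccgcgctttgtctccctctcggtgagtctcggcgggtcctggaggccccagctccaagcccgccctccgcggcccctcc

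Outputs and feedback genes of ERK were also mixed, with 3 of 17 higher (Spry1, Spry4 and Ier3) and 4 lower (Spry2, Spred1, Spred2 and Ccnd1), at a median log2 change of 0.032. Ccnd1, the D-type cyclin that ERK induces, lay at 3.17 to 3.55 CPM in dasatinib 1x, 11.3 to 22.2 CPM in dasatinib 16x, 31.7 and 80.2 CPM in DMSO 1x and 16x, and 10.0 and 9.36 CPM in the parental line (log2 change -2.77 ± 0.27, adjusted p = 0.0012, and 0.0574 with no dose step term). Each dasatinib library was below both DMSO libraries, and the parental line lay inside the dasatinib range. Of 18 genes that FOXO factors induce when AKT is inactive, 3 were higher (Il7r, Sesn3 and Insr) and 6 lower, among them Ccng2, Cdkn1b, Klhl24, Cited2 and Rictor, at a median of -0.052. Ccng2, which encodes cyclin G2, lay at 65.8 to 79.6 CPM (median 76.4) against 98.7 and 97.8 CPM in DMSO and 76.8 and 78.1 CPM in the parental line (log2 change -0.40 ± 0.05, adjusted p = 0.0012). Without DMSO 16x the ERK list had 2 higher and 1 lower, and the FOXO list 1 higher and 3 lower.

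Among 12 tested ABL and SRC family kinase genes, the direct targets of the drug, Fyn was higher and 3 were lower, among them Lyn and Blk, at a median log2 change of -0.10. Without DMSO 16x 0 were higher and 2 lower. Lyn, a main SRC kinase of B cells, differed little, at 143 to 154 CPM (median 149) against 161 and 175 CPM in DMSO and 139 and 142 CPM in the parental line (log2 change -0.18 ± 0.03, adjusted p = 0.00438, but 0.0528 without DMSO 16x). Fyn lay at 113 to 145 CPM (median 139) against 115 and 87.1 CPM in DMSO, so that the groups overlapped (log2 change 0.43 ± 0.09, adjusted p = 0.0108, but 0.207 without DMSO 16x). Blk, a B-cell SRC kinase, spread widely under dasatinib, from 4.65 to 36.9 CPM (median 6.39), against 33.9 and 57.2 CPM in DMSO (log2 change -2.13 ± 0.58, adjusted p = 0.0452, but 0.168 without DMSO 16x and 0.268 without DMSO 1x). The only tested receptor tyrosine kinase genes to change, of 9, were Flt3 and Insr (higher) and Ryk (lower). Without DMSO 16x the calls of Flt3 and Insr were lost. The median log2 change of the 9 genes was 0.010, with medians of opposite sign at the steps, -0.95 at 1x and 0.18 at 16x. Flt3, a progenitor growth receptor, was low throughout, at 0.168 to 0.353 CPM against 0.0818 and 0.0269 CPM in DMSO, and its call was lost without either DMSO library (adjusted p = 0.223 without DMSO 16x and 0.0539 without DMSO 1x).

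Genes of the pre-B receptor pathway were lower for the receptor chains and higher for Zap70, a SYK-related kinase usually found in T cells. Of 24 tested members 4 were higher (Zap70, Fyn, Pik3cd and Dok3) and 7 lower (Cd79a, Cd79b, Blk, Lyn, Pik3ap1, Prkcb and Ptpn6), at a median log2 change of -0.057, and without DMSO 16x 1 and 4. Zap70 stood at 15.2 to 21.9 CPM (median 17.5) under dasatinib, 10.3 and 8.76 CPM in DMSO and 12.9 and 13.5 CPM in the parental line (log2 change 0.92 ± 0.09, adjusted p = 0.000206). Cd79b, a signalling chain of the receptor, stood at 262 to 303 CPM (median 283), 356 and 390 CPM in DMSO and 313 and 305 CPM in the parental line (log2 change -0.40 ± 0.05, adjusted p = 0.000995). In both genes the groups did not overlap and the parental line lay between them.

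Of 7 tested genes of antigen receptor recombination and the surrogate light chain 3 fell (Rag1, Vpreb3 and Igll1) and 0 rose by edgeR's test (1 at an unadjusted p under 0.05, 0 by DESeq2), at a median log2 change of -0.13. Without DMSO 16x 0 passed in either direction. Rag1, a subunit of the recombinase, lay at 16.6 to 21.4 CPM in dasatinib 1x and 2.99 to 8.65 CPM in dasatinib 16x, at 56.6 and 20.4 CPM in DMSO 1x and 16x, and at 73.8 and 75.9 CPM in the parental line. It was thus lower at each step under the drug, and lower at 16x than at 1x in both arms (log2 change -1.79 ± 0.35, adjusted p = 0.0135). The dasatinib and DMSO libraries overlapped over both steps. The call was lost without DMSO 16x (log2 change -1.62), without DMSO 1x and with no dose step term. Of 26 B-lineage transcription factor genes 3 were higher (Tcf4, Foxo1 and Lef1) and 7 lower (Pax5, Ikzf1, Ikzf3, Pou2af1, Bcl11a, Mef2c and Runx1), at a median of -0.025, and without DMSO 16x 2 and 5. Mef2c, a factor of B-cell precursors, lay at 246 to 278 CPM (median 261) against 314 and 369 CPM in DMSO and 266 and 273 CPM in the parental line (log2 change -0.38 ± 0.04, adjusted p = 0.000419). Ikzf3, which encodes Aiolos, lay at 101 to 134 CPM (median 115) against 157 and 197 CPM in DMSO and 148 and 149 CPM in the parental line (log2 change -0.62 ± 0.12, adjusted p = 0.00796).

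Survival genes of the BCL2 family were mostly lower and death genes mixed. Of 6 tested pro-survival members, Bcl2l2 was higher and Bcl2l1, Mcl1, Bcl2a1b and Bcl2a1d were lower, at a median log2 change of -0.12, and without DMSO 16x only Bcl2a1b was called. Bcl2a1b, a copy of the NF-kB-induced survival gene A1, lay at 0 to 0.351 CPM (median 0.0929) against 2.43 and 9.38 CPM in DMSO and 0.307 and 0.263 CPM in the parental line (log2 change -5.71 ± 0.40, adjusted p = 5.62e-05). It was high in the DMSO lines alone, and near-identical A1 copies may share its reads. Mcl1 fell by 0.10 on the log2 scale and Bcl2l1 by 0.15. Of 9 pro-death members (median log2 change 0.12) Bid and Bbc3 were higher and Bok lower, and without DMSO 16x 1 and 0. Bbc3, which encodes PUMA, stood at 16.3 to 21.4 CPM (median 20.1) against 14.0 and 14.9 CPM in DMSO and 13.2 and 13.0 CPM in the parental line (log2 change 0.43 ± 0.09, adjusted p = 0.00883, but 0.0832 without DMSO 1x). Bok lay at 7.89 to 10.3 CPM in dasatinib 1x and 1.64 to 2.85 CPM in dasatinib 16x, against 14.6 and 21.3 CPM in DMSO (log2 change -2.26 ± 0.58, adjusted p = 0.0331). Its call was lost without DMSO 16x (adjusted p = 0.182) and without each of dasatinib 1x B and C and dasatinib 16x A, B and C.

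Of 22 tested genes that p53 induces 9 (40.9%, against 13.5% of all tested genes) were higher (Cdkn1a, Mdm2, Bbc3, Trp53inp1, Ccng1, Sesn2, Zmat3, Aen and Rrm2b), with a median log2 change of 0.26. The 3 lower ones (Tnfrsf10b, Ddb2 and Apaf1) make 13.6%, near the 14.3% of all tested genes. Without DMSO 16x, 2 were higher and 0 lower. Ccng1, which encodes cyclin G1, lay at 233 to 308 CPM (median 277) against 194 and 166 CPM in DMSO and 216 and 215 CPM in the parental line (log2 change 0.61 ± 0.10, adjusted p = 0.00333, but 0.0997 without DMSO 16x). Aen, an apoptosis-linked nuclease, lay at 56.4 to 60.5 CPM (median 58.6) against 49.5 and 48.5 CPM in DMSO and 56.7 and 54.6 CPM in the parental line (log2 change 0.26 ± 0.05, adjusted p = 0.0035). In both the groups did not overlap.

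Cytokine receptor and JAK genes, a list that holds inputs to STAT5 and also receptors that signal by other routes, such as Tnfrsf1b (NF-kB) and Tgfbr1 (SMAD proteins), had 6 of 25 members higher (Il7r, Crlf2, Il2rg, Csf2rb, Tnfrsf1b and Tgfbr1) and 2 lower (Il6ra and Ifnar1), at a median log2 change of 0.11, and without DMSO 16x 4 and 1. Il7r, the interleukin 7 receptor of B-cell precursors, lay at 212 to 237 CPM in dasatinib 1x and 118 to 135 CPM in dasatinib 16x, against 167 and 78.7 CPM in DMSO 1x and 16x (log2 change 0.55 ± 0.08, adjusted p = 0.00255). The drug exceeded DMSO at each step, but the parental line (217 and 219 CPM) lay within the dasatinib 1x range. Il6ra, a receptor chain for interleukin 6, fell to 1.10 to 1.52 CPM (median 1.27) from 3.38 and 8.28 CPM in DMSO, with 2.55 and 2.01 CPM in the parental line (log2 change -2.09 ± 0.25, adjusted p = 0.000683). Of 19 ABC transporter genes, the family of drug efflux pumps, 7 were higher (Abca2, Abca7, Abcb1b, Abcb8, Abcb10, Abcc4 and Abcg2) and Abcc1 lower, at a median of 0.099, and without DMSO 16x 2 and 1. Abcb1b, a mouse P-glycoprotein, stood at 68.7 to 75.4 CPM (median 71.8) against 50.6 and 45.9 CPM in DMSO and 56.9 and 60.8 CPM in the parental line (log2 change 0.58 ± 0.06, adjusted p = 0.000274). All 6 dasatinib libraries were above the other 4.

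Antigen presentation genes were lower under dasatinib for the class I heavy chains. H2-K1 lay at 51.0 to 58.4 CPM in dasatinib 1x, 88.6 to 115 CPM in dasatinib 16x, 147 and 278 CPM in DMSO 1x and 16x, and 67.2 and 66.4 CPM in the parental line (log2 change -1.41 ± 0.09, adjusted p = 8.53e-05). The difference between arms was nearly equal at both steps (-1.42 and -1.40), while both arms were higher at 16x. H2-D1, another heavy chain, changed in parallel (log2 change -0.99 ± 0.09, adjusted p = 0.000383, and 0.101 with no dose step term). Of 15 class I and immunoproteasome genes 2 were higher (Tap2 and Psmb8) and 5 lower (H2-K1, H2-D1, Nlrc5, H2-Q6 and H2-T23), at a median log2 change of -0.099, and without DMSO 16x 1 and 5. Of 10 class II genes H2-DMb1 and H2-Ob were higher and Ciita and H2-Aa lower, at a median of -0.45, against 0 and 2 without DMSO 16x. The class II median differed between the steps, at -1.02 at 1x and -0.043 at 16x. Ciita, the activator of class II transcription, lay at 0 to 0.172 CPM (median 0.110) against 1.17 and 2.07 CPM in DMSO and 0.307 and 0.263 CPM in the parental line (log2 change -4.24 ± 0.51, adjusted p = 0.000673). MHC genes are close copies of each other, so reads may be shared among them.

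Of 31 interferon-induced genes 2 were higher (Ifit2 and Oasl1) and 5 lower (Oas1a, Ddx58, Ifih1, Ifi27l2a and Trim25), with 24 not called and a median log2 change of 0.078, and without DMSO 16x 1 and 3. Ifih1 and Ddx58, which encode the RNA sensors MDA5 and RIG-I, fell by 1.83 ± 0.22 (adjusted p = 0.000647) and 1.26 ± 0.16 (adjusted p = 0.000873) on the log2 scale. Ifih1 lay at 0.477 to 1.52 CPM (median 0.989) against 1.88 and 5.48 CPM in DMSO and 0.579 and 0.931 CPM in the parental line. Of 16 TNF and NF-kB genes (median log2 change 0.030) only Nfkb1 changed (log2 change -0.21 ± 0.03, adjusted p = 0.00228). Adhesion and migration genes had 4 of 22 higher (Itgal, Itga4, Cd44 and Cxcr4) and 5 lower, among them Itgb1, Itgb3, Icam2 and Cd47, at a median of -0.052, and without DMSO 16x 2 and 2. Itgal, which encodes a chain of the leukocyte integrin LFA-1, lay at 89.0 to 91.9 CPM in dasatinib 1x and 137 to 219 CPM in dasatinib 16x against 44.9 and 43.6 CPM in DMSO and 48.0 and 50.1 CPM in the parental line (log2 change 1.49 ± 0.30, adjusted p = 0.0152). Its groups stood far apart at both steps, yet the adjusted p was 0.136 without DMSO 16x. Cd44, a hyaluronan receptor, lay at 106 to 127 CPM (median 118) against 99.5 and 73.9 CPM in DMSO and 110 and 112 CPM in the parental line (log2 change 0.44 ± 0.06, adjusted p = 0.00121).

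Sterol and fatty acid synthesis genes, the targets of SREBP factors, were lower or not called: 22 of 33 fell (66.7%, against 14.3% of all tested genes) and 0 rose by edgeR's test, with a median log2 change of -0.24. At an unadjusted p under 0.05 and by DESeq2, 2 members were higher. Without DMSO 16x, 11 were lower and 1 higher. Among the 22 were the cholesterol pathway enzymes Fdps, Sqle, Lss, Cyp51 and Sc4mol, the factors Srebf1 and Srebf2, and the fatty acid enzymes Acly, Acss2, Fasn, Scd1 and Scd2. Acly, which makes cytosolic acetyl-CoA from citrate, lay at 452 to 500 CPM (median 476) under dasatinib, 590 and 719 CPM in DMSO 1x and 16x, and 480 and 466 CPM in the parental line (log2 change -0.45 ± 0.04, adjusted p = 0.000185). Sc4mol, a sterol demethylation enzyme, lay at 95.1 to 101 CPM (median 97.9) against 117 and 130 CPM in DMSO and 103 and 106 CPM in the parental line (log2 change -0.33 ± 0.04, adjusted p = 0.000471). The groups did not overlap in either gene, and the parental line lay within the dasatinib range for Acly and between the groups for Sc4mol.

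Genes that ATF4 induces under amino acid stress had 10 of 33 higher (Atf5, Ddit3, Sesn2, Phgdh, Psph, Mthfd2, Pycr1, Slc7a1, Nars and Cth) and 3 lower (Stc2, Aars and Xpot), with a median log2 change of 0.085, and without DMSO 16x 3 and 0. Atf5, a stress-induced factor, lay at 107 to 137 CPM (median 118) against 56.7 and 43.1 CPM in DMSO and 73.1 and 75.6 CPM in the parental line (log2 change 1.26 ± 0.13, adjusted p = 0.000764). Asns, a classical target, did not pass (log2 change -0.02, adjusted p = 0.756). Of 69 oxidative phosphorylation genes 12 were higher and Ndufs6 lower, with a median of 0.072, and without DMSO 16x 2 and 1. These shares, 17.4% higher and 1.45% lower, stand against 13.5 and 14.3% of all tested genes. Of the 12 higher genes 4 lie on chromosomes 5 and 18 (Atp5a1, Atp5j2, Atp5k and Cox6a1), and of 64 elsewhere 8 were higher. Ndufs6, a complex I subunit, lay at 19.2 to 21.9 CPM (median 20.1) against 27.7 and 38.0 CPM in DMSO and 22.4 and 20.7 CPM in the parental line (log2 change -0.69 ± 0.10, adjusted p = 0.00154). Of 28 glycolysis and hypoxia genes Pfkp and Car9 were higher and 9 were lower, among them Slc2a3, Aldoc and Ldha, at a median of -0.094, and without DMSO 16x 1 and 9. Aldoc, an aldolase, lay at 0.287 to 0.605 CPM (median 0.513) against 2.92 and 4.68 CPM in DMSO and 0.579 and 0.860 CPM in the parental line (log2 change -3.04 ± 0.31, adjusted p = 0.000281).

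Genes that handle iron and haem had 5 of 22 higher (Fth1, Ftl1, Hmox1, Abcb10 and Slc48a1) and 2 lower (Tfrc and Fech), at a median log2 change of 0.085, and without DMSO 16x 3 and 2. Hmox1, haem oxygenase 1, which breaks down haem, lay at 7.18 to 13.2 CPM (median 9.58) against 3.16 and 3.33 CPM in DMSO and 2.96 and 2.56 CPM in the parental line (log2 change 1.55 ± 0.15, adjusted p = 0.000265). Ftl1, a ferritin chain that stores iron, lay at 931 to 1189 CPM (median 1030) against 595 and 441 CPM in DMSO and 635 and 616 CPM in the parental line (log2 change 1.01 ± 0.15, adjusted p = 0.00384). Tfrc, the receptor that imports transferrin-bound iron, lay at 673 to 829 CPM (median 755) against 938 and 1027 CPM in DMSO and 986 and 1003 CPM in the parental line (log2 change -0.38 ± 0.07, adjusted p = 0.00336). Fech, which inserts iron into haem, fell by 1.59 ± 0.16 (adjusted p = 0.00033). For Hmox1 and Tfrc the DMSO and parental libraries lay together, apart from the dasatinib libraries, and for Ftl1 all dasatinib libraries lay above the other 4.

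Of 42 DNA replication genes 22 were lower (52.4%, against 14.3% of all tested genes) and 7 higher (16.7%, near the 13.5% of all), with a median log2 change of -0.15. Without DMSO 16x 6 were lower and 3 higher. The lower genes included 5 of the MCM helicase genes (Mcm2, Mcm3, Mcm4, Mcm5 and Mcm6), Pcna, the replication clamp, and Lig1, a DNA ligase. Mcm3 lay at 328 to 371 CPM (median 346) against 416 and 452 CPM in DMSO and 385 and 375 CPM in the parental line (log2 change -0.32 ± 0.05, adjusted p = 0.00238). The parental line was between the groups. Of the 7 higher genes 6 lie on chromosome 5 (Mcm7, Rfc1, Rfc3, Rfc5, Pole and Tyms), where genes were generally higher, and Pold2 elsewhere. Pole, a polymerase subunit, lay at 274 to 318 CPM (median 289) against 251 and 202 CPM in DMSO and 300 and 303 CPM in the parental line (log2 change 0.38 ± 0.04, adjusted p = 0.000594).

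Chromosomes 5 and 18 stood apart as wholes, and on both the DMSO lines lay farther from the parental line than the dasatinib lines did. The median log2 change was 0.39 over 765 tested genes of chromosome 5 and 0.34 over 312 of chromosome 18, against -0.058 to 0.011 for the other 18 chromosomes. On chromosome 5, 511 genes (66.8%) were higher and 31 lower, and on chromosome 18, 185 (59.3%) were higher and 12 lower, whereas 6.4 to 12.8% of the genes of any other chromosome were higher. These 2 chromosomes gave 696 of the 1748 higher genes (39.8%) and 9.12% of the tested genes whose chromosome was found. Relative to the parental mean, the median gene of chromosome 5 stood at -0.17 in DMSO 1x, -0.46 in DMSO 16x and 0.07 to 0.09 in the dasatinib libraries, and that of chromosome 18 at -0.17, -0.50 and -0.03 to 0.02. The medians of the difference at 1x and 16x were 0.25 and 0.54 on chromosome 5, and 0.18 and 0.51 on chromosome 18. Outside them 1052 genes were higher (8.89% of 11831) and 1805 lower (15.3%). Leaving these genes out of the test altogether gave 1159 higher.

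**Figure D4:**
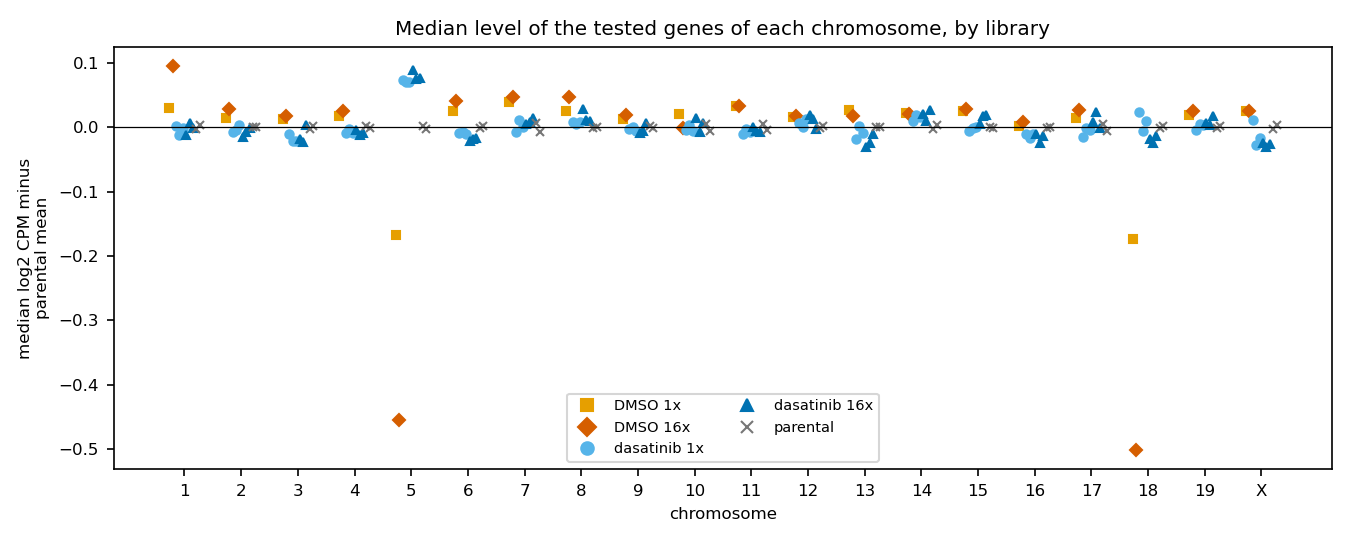
Median over the tested genes of each chromosome (x axis) of log2 CPM minus the parental mean (y axis), 1 point a library. DMSO 1x and DMSO 16x lie at -0.17 and -0.46 on chromosome 5 and at -0.17 and -0.50 on chromosome 18, while the dasatinib libraries stay between -0.03 and 0.09 there.

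Genes of chromosomes 5 and 18 were among the higher members of several gene groups. Of 73 tested cytosolic ribosomal protein genes 7 were higher and 5 lower, among them Rps13, Rpl7, Rpl10a and Rpl22, at a median log2 change of -0.058, and without DMSO 16x 5 and 0. All 7 higher ones lie on chromosome 5 (Rplp0, Rpl5, Rpl6, Rpl9 and Rpl21) or chromosome 18 (Rps14 and Rpl17), and of 66 elsewhere 0 were higher by edgeR's test, also at an unadjusted p under 0.05 and by DESeq2. Rpl6 lay at 1820 to 1958 CPM (median 1893) against 1620 and 1380 CPM in DMSO and 1720 and 1701 CPM in the parental line (log2 change 0.34 ± 0.05, adjusted p = 0.00159). Of 33 genes of G2 and mitosis 2 were higher, Cdc25c and Kif20a, both on chromosome 5 or 18, and 8 were lower, at a median of -0.088, and without DMSO 16x 1 and 2. Pttg1, the securin that guards sister chromatids, lay at 11.7 to 15.3 CPM (median 12.8) against 18.5 and 25.9 CPM in DMSO and 13.7 and 14.4 CPM in the parental line (log2 change -0.75 ± 0.11, adjusted p = 0.00171). Among the higher genes already named, Micall2, Abcb1b, Abcb8, Flt3, Crlf2, Oasl1, Psph and Slc7a1 also lie on chromosome 5, and Spry4, Tcf4 and Nars on chromosome 18. Fech of chromosome 18 and Ccng2 of chromosome 5 moved against the direction of their chromosome.

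Cell cycle regulators had 6 of 18 higher (Ccnd3, Cdk6, Cdkn1a, Cdkn2b, Cdkn2c and Rb1, of which Cdk6 lies on chromosome 5) and 6 lower (Ccnd1, Ccnd2, Cdkn1b, Rbl1, Rbl2 and E2f2), at a median log2 change of -0.026, and without DMSO 16x 1 and 1. Cdkn2c, a CDK4 and CDK6 inhibitor, lay at 122 to 145 CPM (median 138) against 116 and 81.6 CPM in DMSO and 128 and 131 CPM in the parental line (log2 change 0.47 ± 0.08, adjusted p = 0.00276). The MYC and MAX network had Mlxip, a gene of chromosome 5, higher and 5 of 12 genes lower (Myc, Mycl1, Mxi1, Mnt and Mga), at a median of -0.081, and without DMSO 16x 1 and 1. Mnt, a repressor that pairs with MAX, fell by 0.29 ± 0.04 (adjusted p = 0.00183) and Myc by 0.14 ± 0.04 (adjusted p = 0.0148, but 0.0853 without DMSO 16x). DNA methylation enzymes had 4 of 15 higher (Dnmt3a, Mbd3 and, on chromosome 18, Mbd1 and Mbd2) and 4 lower (Dnmt3b, Uhrf1, Mbd4 and Idh1), at a median of 0.063, and without DMSO 16x 1 and 0. Uhrf1, which guides maintenance methylation, fell by 0.25 ± 0.06 (adjusted p = 0.0122). Its call was lost without DMSO 16x (log2 change -0.0998) and with no dose step term. Of 19 immediate early and heat shock genes 2 were higher (Hspd1 and, on chromosome 5, Hsph1) and 4 lower (Jund, Nr4a1, Hspa1b and Hsp90ab1), at a median of -0.050, and without DMSO 16x 0 and 3. Nr4a1, a nuclear receptor induced by antigen receptor signals, lay at 0.0479 to 0.443 CPM (median 0.214) against 1.83 and 3.06 CPM in DMSO and 0.613 and 0.884 CPM in the parental line (log2 change -3.62 ± 0.47, adjusted p = 0.000907). Of 49 replication-dependent histone genes only Hist1h4i changed, as lower, and 0 did without DMSO 16x. Their median log2 change was 0.60, with medians of 1.04 at 1x and 0.02 at 16x, from a summed level of 47.1 to 178 CPM under dasatinib against 62.4 and 53.3 CPM in DMSO 1x and 16x.

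**Figure D5:**
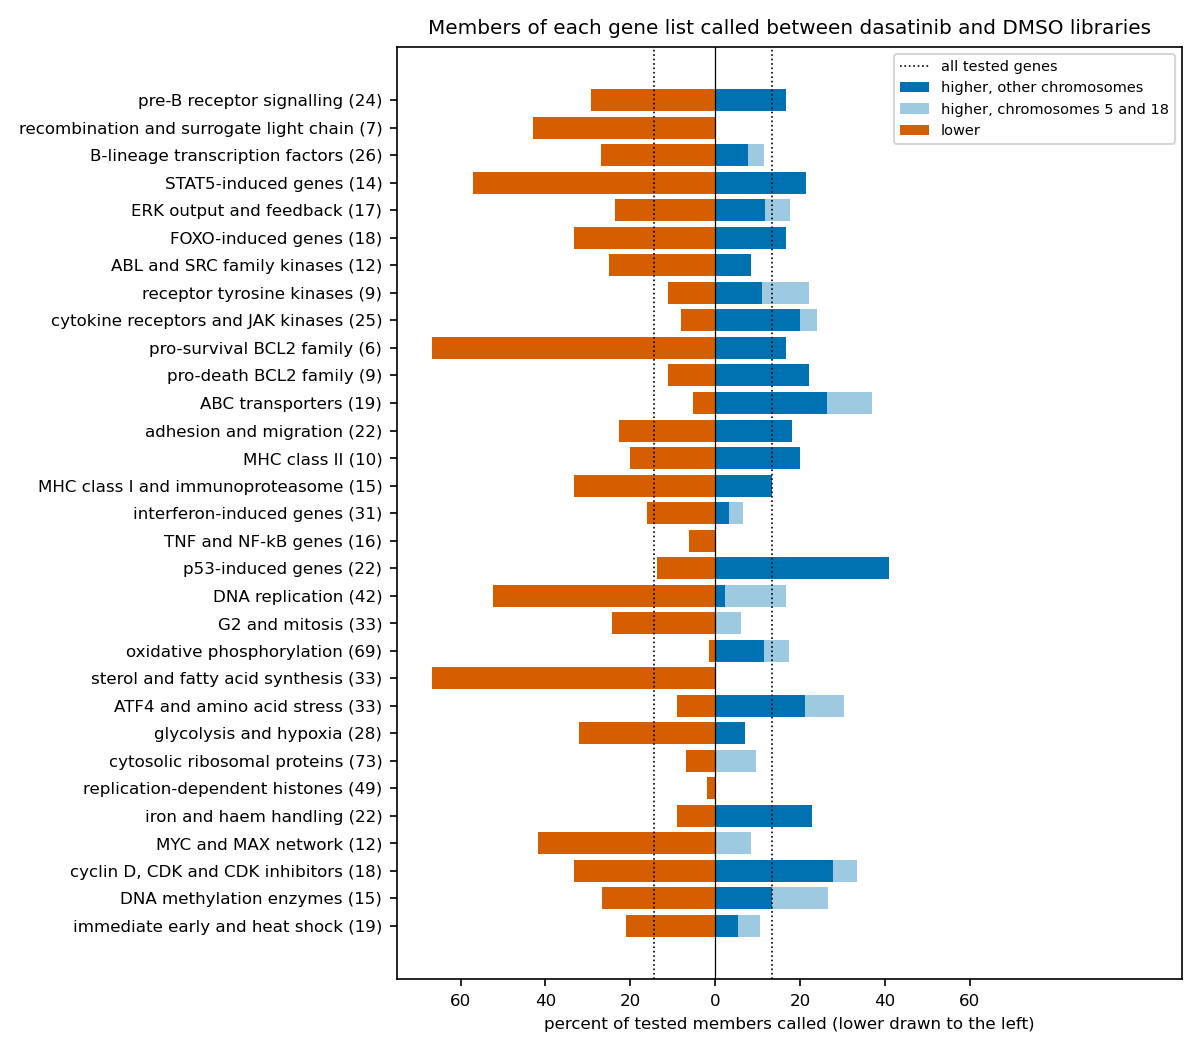
Percent of the tested members of each gene list (number in brackets) that were higher (to the right, with genes of chromosomes 5 and 18 in light blue) or lower (to the left) under dasatinib, with dotted lines at the shares of all tested genes, 13.5 and 14.3%. Sterol and fatty acid synthesis reaches 66.7% lower with 0 higher, and the 7 higher ribosomal protein genes all lie on chromosomes 5 and 18.

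Markers of other lineages changed for single genes. Of 5 tested T and NK cell markers Cd2 and Tcf7 were higher. Cd2, an adhesion molecule of lymphocytes, lay at 145 to 158 CPM in dasatinib 1x and 228 to 244 CPM in dasatinib 16x, against 135 and 162 CPM in DMSO 1x and 16x and 105 and 109 CPM in the parental line (log2 change 0.35 ± 0.08, adjusted p = 0.0105). Tcf7, a T-lineage factor, had a log2 change of 0.70 ± 0.17 (adjusted p = 0.0159). The dasatinib and DMSO libraries overlapped for Cd2, and its call was lost with no dose step term (adjusted p = 0.321). Without DMSO 16x the calls of Cd2 and Tcf7 were both lost (log2 changes 0.17 and 0.54). Of 5 tested myeloid markers 0 changed by edgeR's test, at an unadjusted p under 0.05 or by DESeq2. Cdh5, an endothelial cadherin, fell to 0 to 0.0490 CPM (median 0.0245) from 0.382 and 1.21 CPM in DMSO, with 0.170 and 0.239 CPM in the parental line (log2 change -4.81 ± 0.49, adjusted p = 0.000303). Of 11 B-cell precursor markers 5 were lower (Cd79a, Cd79b, Pax5, Igll1 and Rag1) and 0 higher by edgeR's test (1 at an unadjusted p under 0.05, 1 by DESeq2), and without DMSO 16x 2 were lower. Dntt, the polymerase that adds untemplated bases at receptor joins, lay the other way but did not pass (adjusted p = 0.177), at 36.0 to 131 CPM (median 44.6) under dasatinib against 19.8 and 1.75 CPM in DMSO 1x and 16x and 26.8 and 27.9 CPM in the parental line. Each dasatinib library was above the other 4.

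The differences at 1x and 16x were unequal in 543 genes, 4.21% of those tested, by the interaction term of edgeR's quasi-likelihood test in a 4-group model. Each DMSO group there is 1 library, so an effect of the dose step and a difference between these 2 DMSO libraries cannot be told apart. The count fell to 235 or 260 when library C or A of dasatinib 1x was left out, and was 872 when library B of dasatinib 16x was left out. At an unadjusted p under 0.05 there were 2060. The term was positive, a difference shifted upward at 16x, in 458 genes and negative in 85. Of the 458, 248 (54.1%) lie on chromosomes 5 and 18, and without the genes of these chromosomes 188 were called. Among the 1748 higher genes 325 had a called interaction, and among the 1848 lower genes 73. Foxo1, the FOXO factor of B-cell precursors, was an example, with differences of 0.20 at 1x and 0.85 at 16x (interaction adjusted p = 0.0022): it lay at 233 to 248 CPM in dasatinib 1x, 220 to 238 CPM in dasatinib 16x, 210 CPM in DMSO 1x and 128 CPM in DMSO 16x. The dasatinib level hardly differed between the steps and the DMSO library at 16x was the low one.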

How the data were processed

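RNA was sequenced from 10 libraries, and the table of read counts per gene that the authors deposited was used. Per the submitters' processing notes, CASAVA 1.7.0, Trimmomatic 0.33, TopHat2 2.0.12, BWA 0.7.10, SAMtools, HTSeq 0.6.1 and DESeq were used, on mm9. Whether the counting used strand is not given in the sources used here. Overlapping genes therefore cannot be told apart.

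The 8 dasatinib and DMSO libraries were fitted in R 4.3.3 with edgeR 4.0.16 (TMM, filterByExpr at a minimum count of 10, robust quasi-likelihood test, model of dose step and drug, 5 residual degrees of freedom, biological coefficient of variation 10.4%). Adjustment was by Benjamini and Hochberg at 0.05 over 12908 genes, and these took up 99.98 to 99.99% of a library's counts. The interaction came from a 4-group model with 4 residual degrees of freedom. Levels are CPM, and log2 CPM used a prior count of 2. Where dasatinib libraries held 0 counts, a floor of 3 counts over the group gave a lower bound. With 1 to 3 counts a ratio is given with its 95% interval. Both cover counting error only. The SE of a log2 change was taken as its absolute value over the square root of the test's F statistic. Where a group held few counts, this SE can be too small.

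Chromosomes were matched by gene name for 11810 tested genes in a GRCm38.p6 RefSeq table, while the counts are on mm9. Promoter windows are from the same build. The 36 gene lists, 5 of them markers of cell types, were written from general knowledge, and the members and lists were chosen with earlier results of these data known. Named genes were the 12 highest and 12 lowest called genes with a mean of at least 5 CPM in either group, no overlap between groups and no predicted gene, for each list the 2 called members of smallest p, and Abl1. Of these 88 genes the report describes a part, and other called list members, Fes, Lilrb4, Asns, Ebf1, Dntt and the further Hoxb genes were chosen after their values were seen. The fitting was tested on simulated data, with each library drawn independently. The simulation held no drift of a DMSO line and no shift of a whole chromosome, so it cannot show how the test behaves under either. Alternatives were RLE scaling, other count filters, DESeq2 1.42.0, limma-voom (limma 3.58.1), no robust estimation, a replicate block, no dose step term, a 4-group model, a 2-fold threshold, no genes of chromosomes 5 and 18, and each library left out. List counts without DMSO 16x or without chromosomes 5 and 18, and the rule for nearly absent genes, were added after seeing the data. Some members of the lists, and results on them, are not reported here.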

Additional observations from a re-analysis of the deposited data

Results flagged for a closer look

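In 9 of the named genes the difference between the dasatinib and DMSO libraries at 16x and that at 1x passed the interaction term of edgeR's quasi-likelihood test (log2 difference at 16x minus that at 1x, ± SE). Each DMSO group is a single library, so the spread comes from the dasatinib libraries, and an effect of the dose step and a difference between these 2 DMSO libraries cannot be told apart. For Dse the term was 2.80 ± 0.40 (adjusted p = 0.00407), for Enthd1 2.41 ± 0.45 (adjusted p = 0.0147), for Rps6ka2 2.14 ± 0.22 (adjusted p = 0.000695), for Gpr65 1.79 ± 0.36 (adjusted p = 0.0268) and for Fbxw17 2.97 ± 0.38 (adjusted p = 0.0025). In these 5 genes DMSO 16x was the lowest of the 10 libraries. For Cdkn2c it was 0.37 ± 0.08 (adjusted p = 0.0335) and for Cd2 0.36 ± 0.08 (adjusted p = 0.041). It was negative for Bok, at -2.68 ± 0.42 (adjusted p = 0.0142), where the 3 dasatinib 16x libraries were the lowest, and for Uhrf1, at -0.30 ± 0.07 (adjusted p = 0.0357).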

How the results depend on the processing

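The count of 3596 called genes was 305 under the 2-fold threshold (13 higher, 292 lower) and 1341 to 4030 with 1 library left out, the lowest without DMSO 16x and the highest without DMSO 1x. Higher genes numbered 665 to 2105 and lower genes 676 to 1925 with 1 library left out, and 1159 were higher without the genes of chromosomes 5 and 18. Other settings gave 2608 (no dose step term) to 4286 genes (4-group model). The interaction count of 543 was 188 without the genes of these chromosomes, and 235 (without dasatinib 1x C) to 872 (without dasatinib 16x B) with 1 library left out. The chromosome 5 median was 0.383 with RLE scaling, 0.395 in the 4-group model, and 0.245 to 0.539 with 1 library left out, and the chromosome 18 median 0.183 to 0.513. Lower genes outnumbered higher ones in the main fit. They did not in the 4-group model (2185 higher, 2101 lower), at a minimum count of 50 (1748 and 1672) or without DMSO 1x. None of the 87 named called genes and neither chromosome median changed direction in these settings. With the replicate block, which treats the letters A, B and C and the DMSO line as 4 lines, 2834 genes were called, 2765 of them shared, and 449 by the interaction. Deviations of dasatinib 1x and 16x libraries with the same letter correlated at 0.0558, 0.0287 and 0.0353 for A, B and C. Different letters gave -0.0374 to 0.00594. Each library thus correlated best with its own letter, but the values are too small to show that the letters pair the samples. Of the 87 named called genes, 64 kept the call under all settings other than the 2-fold threshold, 17 lost it without DMSO 16x, 12 with no dose step term and 6 without DMSO 1x. The cause of these losses was not tested. Each DMSO step rests on 1 library, and each library held at least 31695307 counts.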
